A study of Mus musculus with 5 samples.

Results

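Myonuclei, the nuclei of the multinucleated myofiber, were compared between hindlimb skeletal muscle of WT and of Cacna1s KO fetuses, both taken at E18.5. A nucleus was taken as a myonucleus when at least 1.5% of its RNA molecules (unique molecular identifiers, UMIs) came from Ttn, Neb, Trdn and Ryr1, which encode giant sarcomere proteins and proteins of the calcium release site. This rule gave 923 myonuclei in the KO library and 1522 in the WT library, together 2445 of the 7489 nuclei that passed the quality filter at E18.5 and of the 21156 that passed it in the 5 libraries of the series. The 4 genes of the rule chose the nuclei, so their levels are not given as results.

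The study followed WT hindlimb muscle from E14.5 to the adult and added the Cacna1s KO at E18.5 to ask what the loss of excitation-contraction coupling does to the developing myofiber. Each group is 1 library of the 10x Multiome assay, in which RNA and accessible chromatin (ATAC) are sequenced for every nucleus. The WT E18.5 library pooled 14 hindlimbs of C57bl6n fetuses, and the KO library pooled 26 hindlimbs of Cacna1s-/- fetuses on the same C57bl6n background, in which the insertion of a Velocigene cassette had deleted the coding region of the gene. The KO fetuses were paralysed and their limbs held less muscle, as the study describes them, so the loss of the channel, the loss of movement and the library itself cannot be told apart. In both preparations nuclei were stained for PCM1, which marks myonuclei, and the sorted PCM1+ and PCM1- fractions were combined volume for volume, which sets the share of myonuclei (35.7% of the WT and 28.6% of the KO nuclei that passed).

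In skeletal muscle the L-type calcium channel in the transverse tubule senses the depolarization of the membrane and opens the ryanodine receptor of the sarcoplasmic reticulum, and the calcium that is set free starts contraction. Calcium also acts on kinases, phosphatases and class IIa histone deacetylases that control muscle genes. Adult muscle that loses its nerve is known to express acetylcholine receptor subunits and Myog again along the fiber and to switch on genes of atrophy.

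KO myonuclei were sequenced more deeply than WT myonuclei, with a median of 9962 against 6815 UMIs and 2972 against 2408.5 genes per nucleus, and the sums over all myonuclei held 9943448 UMIs in the KO and 11879976 in WT. In ATAC the order was the opposite, with a median of 4160 against 5766.5 cut counts in peaks per nucleus. The label was checked with 10 myonuclear markers outside the rule (such as Actn2, Acta1 and Dmd). Their summed level was 29239.4 CPM (counts per 1e6 UMIs of the summed nuclei) in WT and 29562.2 CPM in KO myonuclei, against 752.487 and 946.575 CPM in the nuclei with under 0.3% of UMIs from the rule's genes, which are called non-myonuclei here. Of these 10 markers 2 were above WT and 8 below, and Dmd alone held 14873 CPM of the WT sum and 17706 CPM of the KO sum. Among nuclei just above the threshold these markers summed to 14384.5 CPM in 91 WT and 18725.5 CPM in 105 KO nuclei, and just below it to 8788.58 CPM in 86 WT and 11976.1 CPM in 95 KO nuclei. The libraries shared 23 barcodes. Markers of mesenchymal cells were lower in KO myonuclei (453.867 against 1332.33 CPM over 6 genes, all 6 below WT), as were those of tenocytes (23.5 against 71.7 CPM, 4 of 5 below) and of chondrocytes and osteoblasts (3.92 against 20.6 CPM, 4 of 5 below). Summed markers of endothelial cells (73.0 against 55.5 CPM), macrophages (66.5 against 73.0), Schwann cells (97.9 against 99.3), smooth muscle cells and pericytes (285 against 281), muscle stem cells (51.9 against 55.3) and myoblasts (104 against 108) differed by less than 1.5-fold, and 3 keratinocyte markers were at 0 in WT and at 0.704 CPM in the KO. Markers of adipocytes (43.3 against 11.7 CPM, 4 of 4 above) and erythroid cells (26.1 against 12.963 CPM, 5 of 5 above) were higher.

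Cacna1s, the pore subunit of the L-type channel and the gene that the KO removes, checks the labels. It lies on the plus strand at chr1:136052750-136119822 (mm10). WT myonuclei held 2318 Cacna1s UMIs (195 CPM) and KO myonuclei held 7 (0.704 CPM), a level 277-fold lower (95% interval 134 to 690.1). All intervals given here cover counting error only, and with a single library for each genotype the differences could not be checked against replicates and were not tested. The other WT libraries held 211 CPM at E14.5, 349.9 CPM at P5 and 326 CPM in the adult, so the KO level was below that of every WT stage. When each nucleus was thinned to 1000 UMIs, 17.9% of WT myonuclei (271 of 1517) had a Cacna1s UMI, against 0 of 915 KO myonuclei, which allows a share of up to 0.402% at this thinned depth. Before thinning 62.9% of WT and 0.758% of KO myonuclei (7 of 923) held a Cacna1s UMI.

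**Figure D1:**
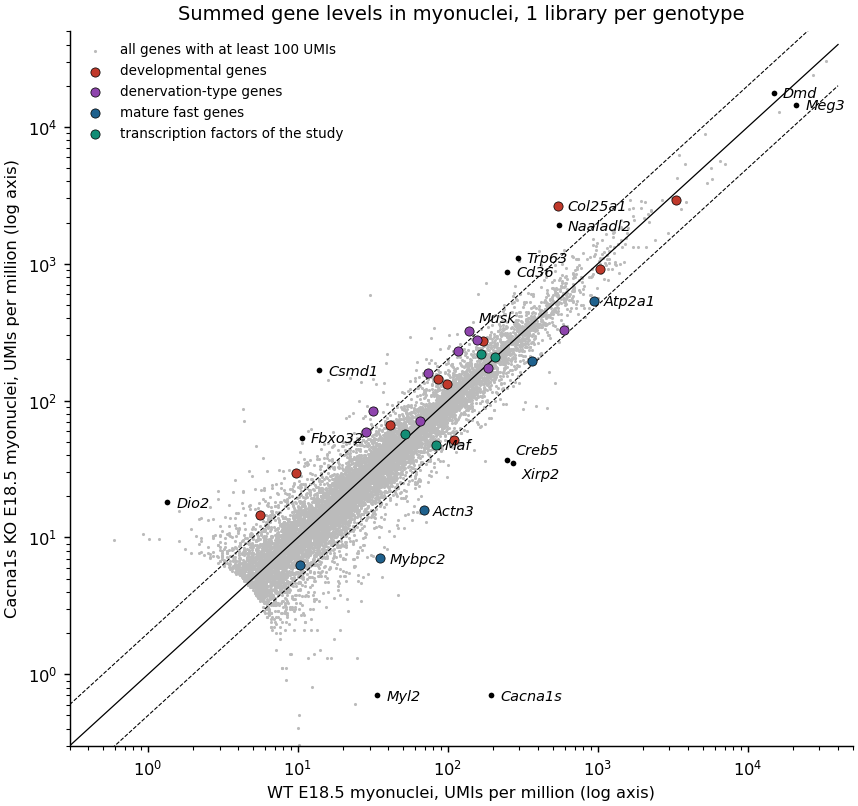
Summed level of each gene in WT (x axis) and Cacna1s KO (y axis) E18.5 myonuclei in CPM, both axes logarithmic, 1 library per genotype. Points are genes with at least 100 UMIs over both sums, the solid line marks equal levels and the dashed lines 2-fold, and colours mark the lists taken from the study. Cacna1s lies at 195 CPM in WT and 0.704 CPM in the KO, far below the lower dashed line.

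Over all 11153 genes that held 100 or more UMIs over both sums, 396 were at least 2-fold higher in KO myonuclei (3.55%) and 465 were at least 2-fold lower (4.17%). By any amount, 44.5% of genes were above WT and 55.5% below, and the median log2 ratio of KO over WT was -0.05. At 5-fold the counts were 35 higher and 38 lower. Beside genes named by rule, some list members, among them the ends of a list and the partner subunits of the channel, were chosen after their values were seen. The counts of list members below are read against these shares. The lists were fixed with earlier results of these data known, and the ones taken from the study were chosen by the study on these same samples.

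The machinery around the missing subunit was at similar levels in both genotypes. Of 15 genes of the L-type channel complex and the triad, the junction of tubule and sarcoplasmic reticulum, 0 passed 2-fold in either direction, 4 were above WT and 11 below, and the median log2 ratio was -0.15. Cacna2d1, the extracellular subunit of the channel, was at 3134 CPM in WT and 3016 CPM in the KO (ratio 0.962, 0.948 to 0.977). Cacnb1, the cytoplasmic beta subunit, was at 77.7 and 76.1 CPM (0.980, 0.889 to 1.08). Stac3, an adaptor needed for the channel to couple to the ryanodine receptor, was at 69.6 and 55.2 CPM (0.793, 0.711 to 0.885). The levels of these partners thus lay within 1.5-fold of WT while the pore subunit was nearly absent. The ends of the list were Jph1, a junctophilin that holds the triad membranes together, at 1059 CPM in WT and 1492 CPM in the KO (1.41), and Sypl2, a synaptophysin-like protein of the triad, at 164 and 95.8 CPM (0.584).

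Among 17 tested genes of the calcium store and of calcium uptake, 1 was 2-fold lower and 0 higher, with a median of -0.10. Casq1, the calcium-binding protein of the store in fast fibers, was at 270.3 CPM in WT and 129 CPM in the KO (0.476, 0.446 to 0.508), and Casq2, the form of slow and cardiac muscle, was at 888 and 594 CPM (0.669). Atp2a1, the calcium pump of fast fibers, was at 949 and 538 CPM (0.567, 0.549 to 0.586), whereas Atp2a2, the slow and cardiac pump, was at 419 and 394 CPM (0.939). Storage and pump genes were therefore lower or near WT. On the other side, Ryr3, a ryanodine receptor of fetal muscle, was at 2059 CPM in WT and 2827 CPM in the KO (1.37), and Mcu, the pore of the mitochondrial calcium uniporter, was at 971 and 1259.6 CPM (1.30). Pvalb, Pln and Atp2a3 held too few UMIs over both sums to be compared.

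Lists from the study describe the developmental and the mature state of the myofiber, and they are no independent evidence of direction here because the study chose them on these libraries. Of the 10 developmental genes, 3 were at least 2-fold higher and 1 was 2-fold lower, 7 were above WT and 3 below, and the median log2 ratio was 0.67. Col25a1, a transmembrane collagen that motor axons need to enter muscle, was at 543 CPM in WT and 2647 CPM in KO myonuclei (4.88, 4.75 to 5.01), which is also above the 1229 CPM of WT at E14.5. Fstl4, a follistatin-like secreted protein, was at 9.68 and 29.7 CPM (3.06, 2.46 to 3.84), and Mymx, the fusogen myomixer, at 5.56 and 14.7 CPM (2.64, 1.96 to 3.59; 4.07 with a rule of 3% of UMIs). These 3 were the members past 2-fold on the high side.

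Other developmental genes lay between 1.3-fold and 1.7-fold. Chrng, the fetal gamma subunit of the acetylcholine receptor, was at 85.8 CPM in WT and 145 CPM in the KO (1.69, 1.56 to 1.83). Tnnt2, the cardiac and fetal troponin T, was at 172 and 274 CPM (1.59, 1.4998 to 1.68), and Mymk, the fusogen myomaker, at 41.2 and 65.9 CPM (1.60). Tmem108, a transmembrane protein, was at 98.3 and 133 CPM (1.35). All 4 were thus above WT, and Chrng, Tnnt2 and Mymk were also at or above their WT E14.5 levels of 71.8, 208 and 61.2 CPM. The fetal myosin heavy chains went with neither group. Myh3, the embryonic chain, was at 1028 and 923 CPM (0.898), Myh8, the perinatal chain, at 3314 and 2929 CPM (0.884), and Myh7, the chain of slow and fetal primary fibers, at 110.2 and 51.4 CPM (0.466, 0.420 to 0.517; 0.508 after thinning). The Myh7 ratio was 2.75 when nuclei with 2 or more UMIs of any 1 of Myh7, Myl2, Myl3, Tnnt1 or Tnni1 (slow-gene nuclei) were left out. UMIs were counted before thinning, so this filter also tends to leave out deeper nuclei. It kept 788 of 1522 WT and 387 of 923 KO myonuclei. That setting removes every nucleus with 2 or more Myh7 UMIs, so this value cannot show the direction of Myh7.

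All 5 mature fast genes were below WT, with 2 past 2-fold and a median of -0.89. Mybpc2, the fast myosin-binding protein C, was at 35.4 CPM in WT and 7.04 CPM in the KO (0.199, 0.152 to 0.257). Actn3, the alpha-actinin of fast Z-discs, was at 69.3 and 15.8 CPM (0.228, 0.191 to 0.271). In the other WT libraries Mybpc2 was at 0.209 CPM at E14.5 and 237 CPM at P5, and Actn3 at 16.1 and 209 CPM. Ckm, the muscle creatine kinase, was at 362 and 196 CPM (0.540, 0.512 to 0.570), and Myh4, the IIB myosin heavy chain, at 10.3 and 6.34 CPM (0.617, 0.448 to 0.843; 0.355 after thinning). The list median was lower still, at -1.42, without slow-gene nuclei.

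Of the 4 transcription factors that the study places over these programs, 0 passed 2-fold. Maf, a large Maf factor, was at 83.0 CPM in WT and 47.7 CPM in KO myonuclei (0.574, 0.514 to 0.642), between the 8.67 CPM of WT at E14.5 and the 218 CPM at P5. Klf5, a Krüppel-like factor, was at 166 and 219.7 CPM (1.32, 1.24 to 1.41). Myog, the myogenic factor of differentiation, was at 51.9 and 57.4 CPM (1.11, 0.987 to 1.24), and Tead4 at 207 and 208 CPM (1.01, 0.9496 to 1.07). The Myog and Tead4 intervals include 1, so counting error alone covers their differences, and the Tead4 ratio fell on either side of 1 under other settings (0.955 without Col22a1 nuclei). In non-myonuclei Maf was at 143 CPM in WT and 176 CPM in the KO, so the lower level was seen in myonuclei and not there.

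**Figure D2:**
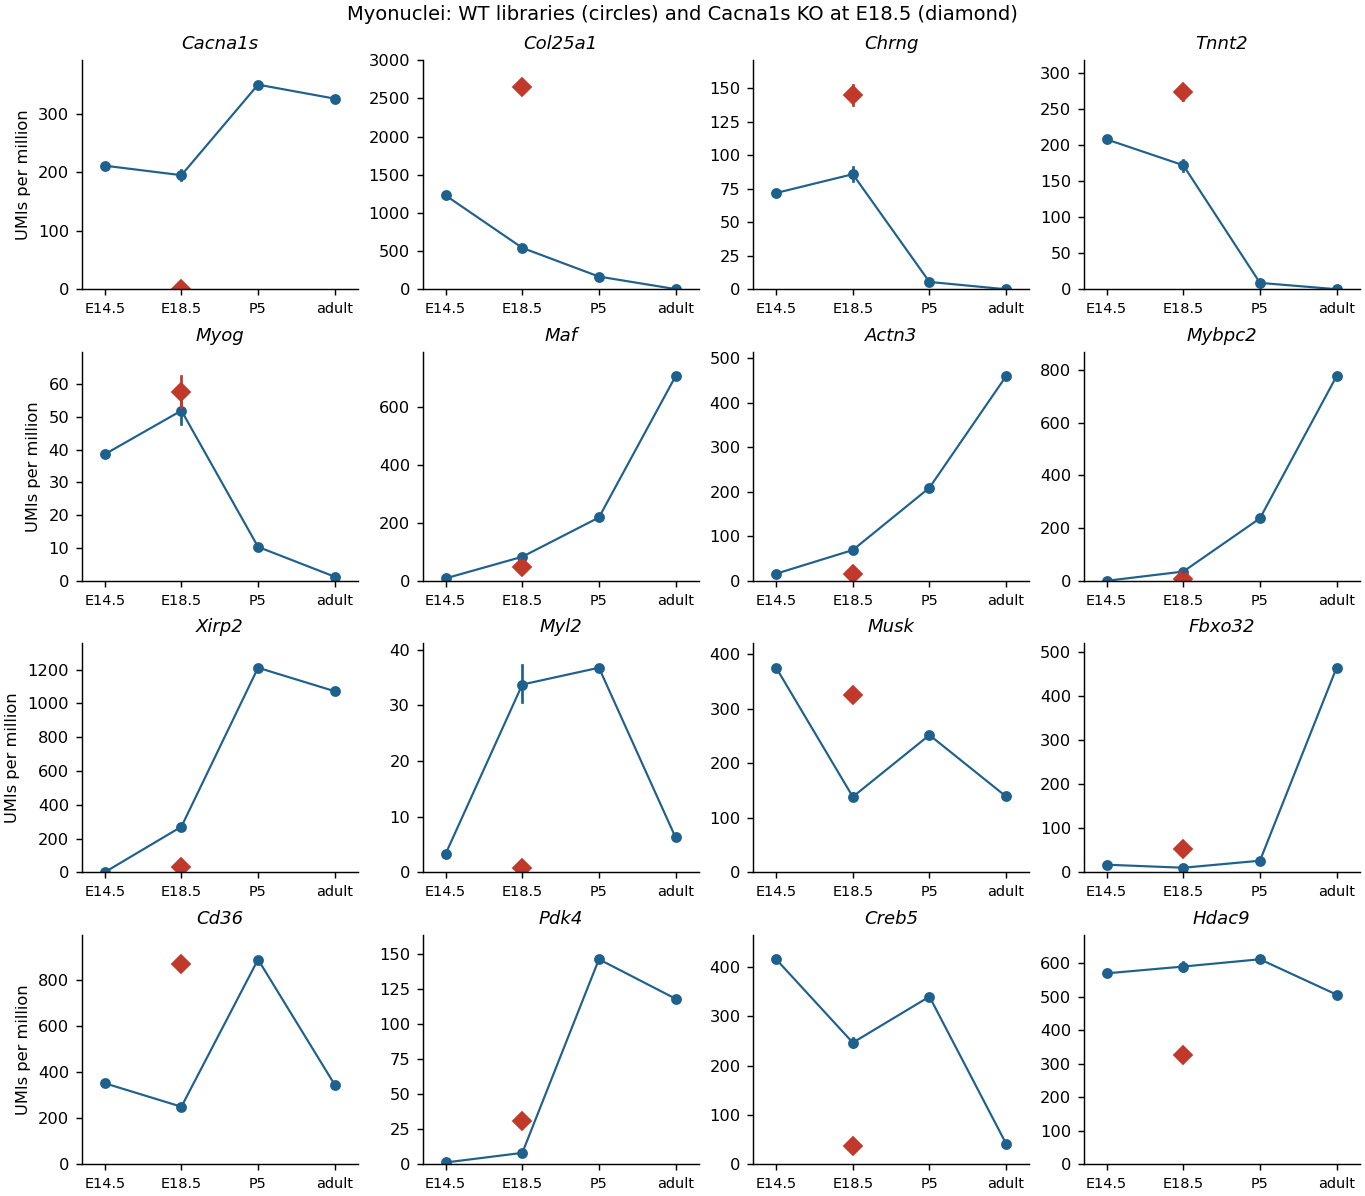
Level in myonuclei, in CPM, of 16 genes in the 4 WT libraries, ordered by age from E14.5 to the adult (circles joined by a line), and in the Cacna1s KO at E18.5 (diamond), with exact Poisson 95% intervals at E18.5. Every panel has its own y axis from 0 and each point is 1 library. Col25a1, Chrng and Tnnt2 lie above every WT stage in the KO, while Actn3, Mybpc2, Xirp2 and Myl2 lie below WT E18.5.

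The promoter windows of the study-list genes with the highest and lowest RNA ratios are shown because the RNA was measured and an ATAC peak overlapped each printed window. Each runs from 250 bases before to 50 bases after the start in RefSeq (GRCm38.p6) and is written 5′ to 3′ on the strand of the gene. Capitals mark matches to any of 5 motifs searched on both strands: the E-box CANNTG of myogenic factors, the M-CAT element CATTCC of TEAD factors, the Maf motif TGCTGA, the MEF2 site (CTA and TAG with any 4 bases between) and the CACCC box CCACCC of Krüppel-like factors. Fstl4 and Col25a1 were the highest, Mybpc2 the lowest, and Actn3, next lowest, is named only.
Col25a1, chr3:130180595-130180894, plus strand: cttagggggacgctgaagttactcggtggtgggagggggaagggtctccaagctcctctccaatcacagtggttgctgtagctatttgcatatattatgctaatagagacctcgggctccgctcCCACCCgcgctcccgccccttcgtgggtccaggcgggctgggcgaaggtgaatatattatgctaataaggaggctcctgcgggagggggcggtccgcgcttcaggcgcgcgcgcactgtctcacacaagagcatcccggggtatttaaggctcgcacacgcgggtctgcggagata
Fstl4, chr11:52764456-52764755, plus strand: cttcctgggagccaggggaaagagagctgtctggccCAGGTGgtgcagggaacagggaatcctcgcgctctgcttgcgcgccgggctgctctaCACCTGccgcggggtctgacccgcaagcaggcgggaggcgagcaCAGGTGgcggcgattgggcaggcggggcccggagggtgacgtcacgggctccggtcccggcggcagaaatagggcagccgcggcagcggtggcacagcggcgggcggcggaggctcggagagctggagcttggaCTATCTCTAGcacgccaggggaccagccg
Mybpc2, chr7:44524620-44524919, minus strand: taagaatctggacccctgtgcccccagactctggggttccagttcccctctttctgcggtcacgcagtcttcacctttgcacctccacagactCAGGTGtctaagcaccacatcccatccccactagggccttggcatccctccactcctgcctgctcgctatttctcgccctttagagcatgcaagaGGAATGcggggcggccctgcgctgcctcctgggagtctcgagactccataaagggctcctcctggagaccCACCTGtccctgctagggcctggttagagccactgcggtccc

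The Col25a1 window held 1 CACCC box, the Fstl4 window 3 E-boxes and 1 MEF2 site, and the Mybpc2 window 2 E-boxes and 1 M-CAT element, which reads GGAATG because it lies on the opposite strand. Over all 32851 promoter windows of this length, 72.3% held an E-box, 31.5% a CACCC box, 19.5% a Maf motif, 14.7% an M-CAT element and 3.69% a MEF2 site. The Maf motif was in 2 of 4 mature fast promoters and 0 of 8 developmental promoters, and the E-box was in 4 of 4 and 7 of 8, in lists too small to be set apart from the share over all promoters. The peak over the Col25a1 start was 1.77-fold (1.35 to 2.34) higher in KO myonuclei, while those at Fstl4 (0.892, 0.549 to 1.49) and Mybpc2 (0.970, 0.723 to 1.27) had intervals that include 1. The Mybpc2 peak (chr7:44524888-44525585) overlaps only the upstream end of its window, so the start and the marked motifs lie outside it.

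The fast sarcomere list, which shares Myh4, Actn3 and Mybpc2 with the study's mature fast list, was lower as a group. Of 18 genes, 5 were at least 2-fold lower, Mybpc2 and Actn3 among them, and 0 higher. In all 16 were below WT, and the median was -0.66 (-0.97 without slow-gene nuclei). Mylk2, the kinase of the fast regulatory light chain, was at 58.5 CPM in WT and 15.3 CPM in the KO (0.261, 0.218 to 0.312). The adult fast myosins Myh1 (IIX) and Myh2 (IIA) were at 31.6 and 15.7 CPM (0.497) and at 10.3 and 3.32 CPM (0.323). Neither stayed past 2-fold under every setting, since Myh1 was at 0.511 and Myh2 at 0.568 without slow-gene nuclei and Myh2 at 0.711 after thinning. These were low genes at E18.5, and the abundant members were lower too, by smaller factors. Myl1, the fast alkali light chain, was at 3893 and 2833 CPM (0.728), Acta1, skeletal alpha-actin, at 875 and 474 CPM (0.541, and 0.308 without slow-gene nuclei), Tpm1 at 900.4 and 592 CPM (0.657) and Tnnt3, the fast troponin T, at 729 and 537 CPM (0.737). Mylk4, a myosin light chain kinase, stood against the group at 436 and 764 CPM (1.75).

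Slow-fiber genes were lower as well. Of 13, 5 were 2-fold lower and 0 higher, 11 were below WT, and the median was -0.44, but -0.06 without slow-gene nuclei. The genes that define those nuclei are all on this list, so the second median is shaped by the filter itself. Myl2, the slow and ventricular regulatory light chain, had the lowest ratio after Cacna1s, with 401 UMIs (33.8 CPM) in WT and 7 UMIs (0.704 CPM) in the KO, a level 47.9-fold lower (23.1 to 120.0). Its ratio was 0.0888 after thinning. Myl3, the slow essential light chain, was at 13.4 and 2.11 CPM (0.158, 0.0950 to 0.250), Csrp3, a LIM protein of the Z-disc, at 63.0 and 25.7 CPM (0.409), and Tpm3, the slow tropomyosin, at 248 and 124 CPM (0.499, past 2-fold by little, and 0.944 without slow-gene nuclei). Both slow light chains were thus the members farthest below WT, and Myh7, given above, was the remaining member past 2-fold. The troponins of slow fibers were nearer to WT: Tnnt1 was at 102 and 128 CPM (1.26) and Tnni1 at 259 and 197 CPM (0.759). The developmental sarcomere list of 6 tested genes had 0 members past 2-fold and a median of -0.04, with Actc1, cardiac actin, at 545 and 448 CPM (0.823) and Myl4, the fetal light chain, at 298 and 340.2 CPM (1.14).

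Genes of the Z-disc, the M-band and sarcomere assembly were lower too, with 8 of 31 at least 2-fold lower, 0 higher, 27 below WT and a median of -0.44. Xirp2, an actin-binding repeat protein of Z-discs and intercalated discs, was at 271 CPM (3215 UMIs) in WT and 34.9 CPM (347 UMIs) in the KO, 7.75-fold lower (6.94 to 8.69), against 1.25 CPM in WT at E14.5 and 1212 CPM at P5. Its ratio was 0.129, and between 0.0638 and 0.200 under the other settings. Nrap, an anchor of new myofibrils, was at 327 and 98.4 CPM (0.301, 0.280 to 0.323). Both genes were higher in WT at P5 than at E18.5 (Nrap at 846 CPM) and several-fold lower in the KO.

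Of the muscle ankyrin repeat proteins, which bind titin and respond to stretch, Ankrd2 and Ankrd1 were past 2-fold lower and Ankrd23 was not. Ankrd2 was at 12.8 and 1.41 CPM (0.110, 0.0588 to 0.190, and 0.235 without slow-gene nuclei). Ankrd1 was at 45.5 and 12.4 CPM (0.272, 0.222 to 0.332, and 0.421 without slow-gene nuclei). Lmod2, which nucleates thin filaments, was at 119.7 and 48.9 CPM (0.408), Tcap, the titin cap, at 17.4 and 6.64 CPM (0.381), and Myot, myotilin, at 553 and 269 CPM (0.486). The abundant members of this list were below WT by under 2-fold. Ldb3, which links alpha-actinin to signaling proteins, was at 2111 and 1336 CPM (0.633), Actn2 at 1498 and 1037 CPM (0.692), Myom1, myomesin, at 1844 and 1335 CPM (0.724) and Nexn, nexilin, at 1321 and 984 CPM (0.745). Synpo2, an actin-bundling partner of filamin, was the highest member at 106 and 186 CPM (1.76).

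**Figure D3:**
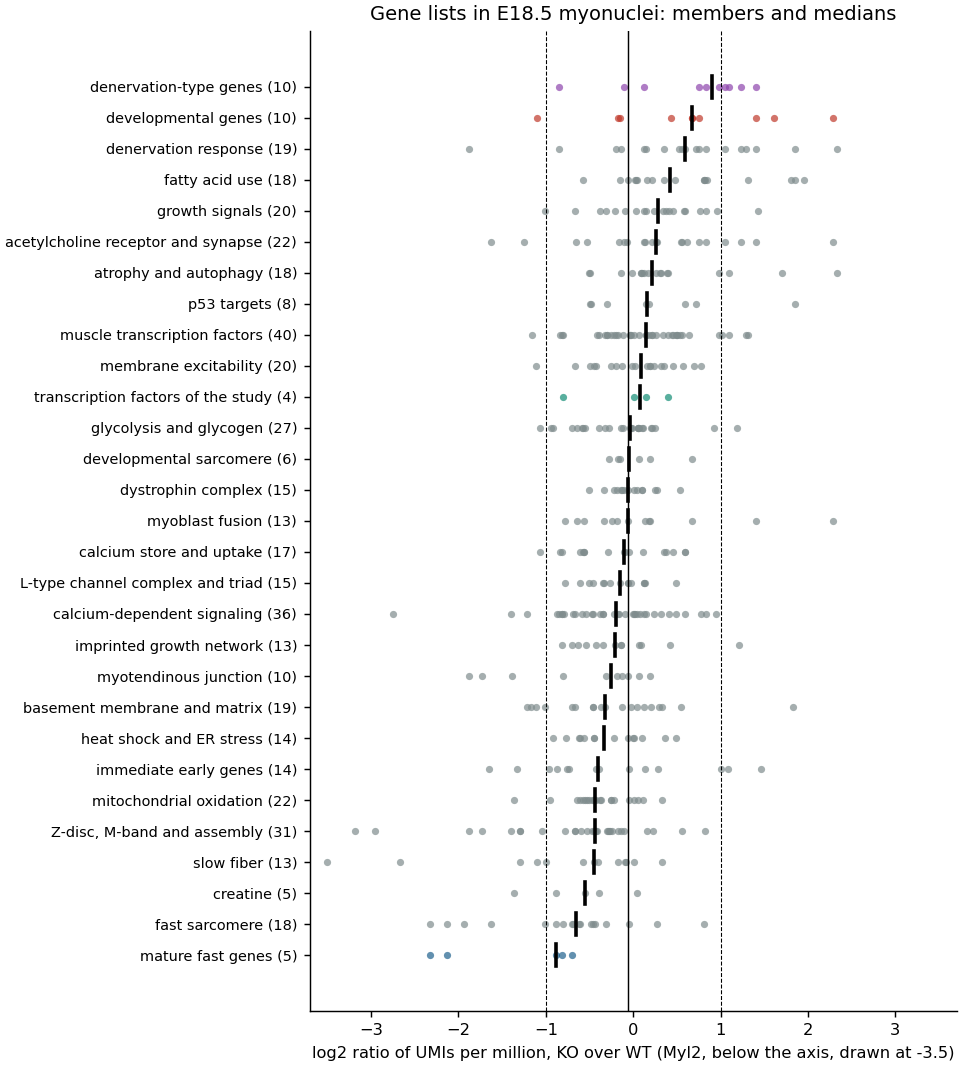
Log2 ratio of CPM, KO over WT, for the tested members of each of 29 gene lists (points, number of genes in parentheses) with the list median (bar), ordered by median. The solid line marks the median of all 11153 tested genes, -0.05, and the dashed lines mark 2-fold; Myl2 lies below the axis and is drawn at its edge. The denervation-type genes have the highest median, 0.91, and the mature fast genes the lowest, -0.89.

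Genes known to change in adult muscle after denervation were mostly above WT. In the study's list of 10 denervation-type genes, again chosen on these libraries, 4 were at least 2-fold higher and 0 lower, 8 were above WT and the median was 0.91. Chrna1, the alpha subunit of the acetylcholine receptor, was at 31.6 CPM in WT and 83.6 CPM in the KO (2.64, 2.33 to 2.99). Musk, the kinase that clusters the receptor, was at 139 and 325 CPM (2.34, 2.21 to 2.49), and Chrnd, the delta subunit, at 28.5 and 59.0 CPM (2.07, 1.81 to 2.37). The Chrnd ratio was just under 2 in some settings (1.91 with a rule of 0.75%). Chrng, given above, was at 1.69, and Chrnb1, the beta subunit, was at 186 and 173 CPM (0.933), so the subunits of the receptor differed in size and side. Foxo3 and Foxo1, factors that switch on atrophy genes, were at 74.0 and 159 CPM (2.14) and at 117 and 231 CPM (1.97). The class IIa deacetylase Hdac4 was at 155 and 277 CPM (1.79, 1.68 to 1.90) and its relative Hdac9 at 591 and 327 CPM (0.554, 0.531 to 0.578). The study names Hdac9 as lowered, and the other genes of this list as raised, in the KO as after denervation. The list median thus mixes both directions. Trim63, the ubiquitin ligase MuRF1, was at 65.2 and 71.3 CPM (1.09, 0.986 to 1.21), a difference that counting error covers.

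A textbook list of the denervation response, which shares members with the list above, Hdac9 among them, had 6 of 19 tested genes at least 2-fold higher, 1 lower and a median of 0.59. Fbxo32, the ubiquitin ligase atrogin-1, was at 10.6 CPM (126 UMIs) in WT and 53.6 CPM (533 UMIs) in the KO (5.05, 4.15 to 6.19). Eda2r, a receptor of the TNF family, was at 37.4 and 135 CPM (3.61, 3.24 to 4.02), and Runx1, a factor that protects denervated fibers, at 59.9 and 147 CPM (2.45, 2.24 to 2.68). Runx1 was also higher in non-myonuclei, at 63.2 CPM in WT and 134 CPM in the KO. Ncam1, an adhesion molecule of denervated fibers, was at 1724 and 2547 CPM (1.48).

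Genes of the neuromuscular synapse had no common direction, with 4 of 22 at least 2-fold higher, 2 lower, 15 above WT and a median of 0.26. The 2 low members were Ache, acetylcholinesterase, at 21.0 and 8.85 CPM (0.421, 0.326 to 0.538), and Ufsp1, a protease whose gene lies beside Ache, at 27.3 and 8.85 CPM (0.325, 0.253 to 0.412). Erbb4, a neuregulin receptor, was at 2248 and 2443 CPM (1.09), Utrn, utrophin, at 949 and 1144 CPM (1.21) and Macf1, a cytoskeletal linker at the synapse, at 1584 and 1834 CPM (1.16).

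In the list of atrophy and autophagy, 3 of 18 genes were at least 2-fold higher, 0 lower, 14 were above WT and the median was 0.22. Besides Fbxo32 and Foxo3 the third was Bnip3, which marks mitochondria for autophagy, at 14.8 CPM in WT and 48.4 CPM in the KO (3.27, 2.74 to 3.90), and at 19.1 and 74.6 CPM in non-myonuclei. Trim55, the ligase MuRF2, was at 576 and 719 CPM (1.25).

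Calcium-dependent signaling gave 3 of 36 genes at least 2-fold lower and 0 higher, 22 below WT and a median of -0.20. Creb5, a factor of the CREB family, was at 247 CPM (2930 UMIs) in WT and 36.7 CPM (365 UMIs) in the KO, a ratio of 0.149 (0.133 to 0.166; 0.0797 with a rule of 3% and 0.229 without slow-gene nuclei). Camk4, a calmodulin kinase, was at 9.26 and 3.52 CPM (0.380, and between 0.222 and 0.829 under other settings) and Nfatc4, a calcineurin target, at 7.91 and 3.42 CPM (0.432, but 0.703 without nuclei carrying other cells' markers and 0.711 after thinning). All 3 were higher in non-myonuclei than in myonuclei and lower in the KO there too: Creb5 was at 995 and 268 CPM, Camk4 at 50.9 and 23.2 CPM and Nfatc4 at 63.8 and 32.8 CPM. The mesenchymal markers given above were also lower in KO myonuclei, and their part in these results was not tested. Among members abundant in myonuclei, Mef2a was at 519 and 888 CPM (1.71, 1.66 to 1.77), Mef2c at 3397 and 4237 CPM (1.25), Ppp3ca, the catalytic subunit of calcineurin, at 681 and 525 CPM (0.771), and Prkce, a protein kinase C, at 69.2 and 133 CPM (1.93), the highest of the list.

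Immediate early genes, which respond to calcium and to stress of dissociation, went both ways. Of 14 tested, 3 were at least 2-fold higher and 2 lower, with a median of -0.41 that turned to 0.13 when genes with fewer UMIs were admitted. Egr1 was at 17.3 CPM in WT and 47.6 CPM in the KO (2.76, 2.34 to 3.26; 1.87 without slow-gene nuclei), Fosl2 at 14.3 and 28.8 CPM (2.01, but 1.54 after thinning) and Junb at 3.37 and 7.14 CPM (2.12, and between 1.21 and 3.94 under other settings). Nr4a1, an orphan nuclear receptor, was at 32.2 and 12.9 CPM (0.399, 0.324 to 0.489; 0.609 after thinning) and Klf4, a Krüppel-like factor, at a ratio of 0.318 (0.245 to 0.409; 0.713 without slow-gene nuclei and 0.568 after thinning). The list thus has no common direction in these nuclei.

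Transcription factors of muscle at large included 4 of 40 at least 2-fold higher and 1 lower, with a median of 0.15. Besides Runx1 and Foxo3 the higher ones included Myf5, the factor of myoblasts, at 5.64 and 14.0 CPM (2.48, but 1.24 after thinning). Nfic, a nuclear factor I, was at 54.5 and 24.5 CPM (0.450, 0.387 to 0.522), while Nfib was at 1132 and 974 CPM (0.861). Sox6, which represses slow genes in fast fibers, was at 1435 and 1813 CPM (1.26), and Eya4, a transcriptional cofactor, at 1236 and 1751 CPM (1.42).

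Genes of fatty acid use were above WT, with 4 of 18 at least 2-fold higher, 0 lower, 15 above WT and a median of 0.42 (0.69 without slow-gene nuclei). Cd36, the fatty acid transporter, was at 248 CPM (2950 UMIs) in WT and 869.8 CPM (8649 UMIs) in the KO (3.503, 3.36 to 3.65), close to the 887 CPM of WT at P5. Pdk4, the kinase that shuts glucose carbon out of the mitochondria, was at 7.91 and 30.7 CPM (3.88, 3.07 to 4.94), and Ucp3, an uncoupling protein of muscle, at 6.73 and 24.3 CPM (3.61, 2.80 to 4.71; 2.32 after thinning). Lpl, lipoprotein lipase, was at 55.9 and 139 CPM (2.48, 2.26 to 2.72). These 4 lay at a higher level in WT at P5 than at E18.5, at 887, 146, 140.4 and 131 CPM. Ppara, a nuclear receptor for fatty acids, was at 79.7 and 139 CPM (1.75). Cpt1b, a carnitine palmitoyltransferase of muscle mitochondria, was by contrast at 36.6 and 24.5 CPM (0.670). Adipocyte markers were above WT in KO myonuclei and reached 480.756 CPM in KO non-myonuclei, and their part was not tested. In those non-myonuclei Cd36 was at 108 CPM, far below its level in KO myonuclei, and Lpl was at 158 CPM.

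Oxidation in mitochondria stood the other way, with 18 of 22 genes below WT, 1 at least 2-fold lower, 0 higher and a median of -0.44. The low gene was Ckmt2, the creatine kinase of muscle mitochondria, at 167 and 64.9 CPM (0.389, 0.356 to 0.426; 0.531 after thinning). Abundant members were lower by smaller factors, with Sdha, of succinate dehydrogenase, at 200.3 and 141 CPM (0.704), Ndufs1, of respiratory complex I, at 185 and 134 CPM (0.720) and Ogdh, oxoglutarate dehydrogenase, at 233 and 199.7 CPM (0.858). The creatine list, which holds Ckm and Ckmt2 too, had 4 of 5 below WT and a median of -0.55, with Gatm, the enzyme that commits to creatine synthesis, at 376 and 257 CPM (0.685). Glycolysis and glycogen had a median of -0.03, but -0.59 without slow-gene nuclei, with 1 of 27 genes 2-fold higher (Slc2a1, the basal glucose transporter, 8.42 and 19.2 CPM, 2.28) and 1 lower (Ppp1r3c, a glycogen-targeting subunit, 23.4 and 11.2 CPM, 0.477, but 0.915 after thinning). The medians of fatty acid use and mitochondrial oxidation were thus on opposite sides of WT, and that of glycolysis depended on which nuclei were summed.

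Genes of the membrane and its anchors differed little. The dystrophin complex had 0 of 15 past 2-fold and a median of -0.06, and Dmd, dystrophin itself, was at 14873 CPM in WT and 17706 CPM in the KO (1.19). Membrane excitability had 1 of 20 at least 2-fold lower and a median of 0.09. Ano5, a scramblase of membrane repair, was that gene at 31.4 and 14.48 CPM (0.461, and between 0.159 and 0.503 under other settings). Cacna1c, the L-type pore subunit of heart and smooth muscle, was at 118 and 139.8 CPM (1.18, 1.10 to 1.27). The level of this related channel was thus close to WT in the absence of Cacna1s.

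The myotendinous junction list had 3 of 10 at least 2-fold lower, 0 higher and a median of -0.25. Col22a1, the collagen that marks junctional nuclei, was at 176 CPM in WT and 67.4 CPM in the KO (0.383, 0.350 to 0.418; 0.242 after thinning), and Nrap and Ankrd1 were the others. After thinning, 1.71% of WT and 0.328% of KO myonuclei held at least 3 Col22a1 UMIs (26 of 1517 and 3 of 915). Vcl, vinculin, was at 517 and 454 CPM (0.877) and Itgb1, an integrin chain, at 372 and 356 CPM (0.956). Fewer nuclei with much Col22a1 thus went with the lower sum, while tenocyte markers were lower as well (23.5 against 71.7 CPM), and their part was not tested. Myoblast fusion had 2 of 13 at least 2-fold higher (Col25a1 and Mymx), 0 lower and a median of -0.06, with Jam2, an adhesion molecule, at 259.7 and 167 CPM (0.643).

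In the basement membrane and matrix list, 4 of 19 were at least 2-fold lower, 1 higher and the median was -0.32. The low members were the collagen VI chains Col6a1 (37.5 and 16.7 CPM, 0.446), Col6a2 (44.9 and 20.7 CPM, 0.461) and Col6a3 (106 and 45.7 CPM, 0.429) and Fn1, fibronectin (75.6 and 37.5 CPM, 0.496). All 4 are products of mesenchymal cells and were far higher in non-myonuclei, where Col6a3 was at 806 CPM in WT and 466 CPM in the KO. With nuclei over 0.5% of other cells' markers left out, 0 of the 4 were past 2-fold, with Col6a3 at a ratio of 0.722, Col6a2 at 0.696, Fn1 at 0.686 and Col6a1 at 0.650. With a rule of 3% Col6a3 was at 0.244. The high member, Col19a1, a collagen of differentiating muscle, was by contrast a gene of myonuclei, at 296 CPM (3518 UMIs) in WT and 1055 CPM (10492 UMIs) in the KO (3.56, 3.43 to 3.703) against 89.7 and 146 CPM in non-myonuclei.

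Growth signals had 1 of 20 genes at least 2-fold higher, 1 lower, 14 above WT and a median of 0.29. Pik3r1, the regulatory subunit of phosphoinositide 3-kinase, was at 89.2 and 239.6 CPM (2.68, 2.496 to 2.89), and likewise 231 and 526 CPM in non-myonuclei. Fstl1, a follistatin-like protein, was at 108 and 53.6 CPM (0.496, past 2-fold by little, and between 0.312 and 0.638 under other settings) and Igf2 at 606 and 525 CPM (0.866). In the imprinted growth network 1 of 13 was 2-fold higher, 0 lower, and the median was -0.21: Cdkn1c, an inhibitor of the cell cycle, was at 64.0 and 148 CPM (2.31, 2.12 to 2.53; 1.69 without slow-gene nuclei). The long RNAs of the Meg3 cluster were lower together, with Meg3 at 21001 and 14447 CPM (0.688), Rian at 16179 and 12781 CPM (0.790) and Mirg at 2937 and 1671 CPM (0.569). In non-myonuclei these 3 were below WT too, with Meg3 at 6957 and 4792 CPM. Heat shock and ER stress had 0 of 14 past 2-fold and a median of -0.33, and p53 targets had 1 of 8 higher (Eda2r), 0 lower and a median of 0.16. Hspb7, a small heat shock protein, was at 9.34 and 4.93 CPM (0.527), Bag3, a co-chaperone, at 72.8 and 47.3 CPM (0.649), and Cdkn1a, the p21 inhibitor, at 46.9 and 77.3 CPM (1.65). Hspb7 was the lowest and Hspb8 the highest member of the heat shock list, Hspb8 at a log2 ratio of 0.49.

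Genes were also named by size, as the 15 highest and 15 lowest ratios and the largest gains and losses in CPM. Those with the highest ratios outside the lists were mostly low in WT. Dio2, the deiodinase that activates thyroid hormone, was at 1.35 CPM (16 UMIs) in WT and 18.1 CPM (180 UMIs) in the KO (13.4, 8.05 to 24.0; 24.9 after thinning), above all 4 WT stages. Csmd1, a large membrane protein with complement control domains, was at 13.8 and 167 CPM (12.1, 10.3 to 14.3; 24.95 without slow-gene nuclei), and Nell2, a secreted protein of axon guidance, at 5.22 and 46.9 CPM (8.98, 6.88 to 11.9; 5.73 after thinning). Its relative Nell1 was at 26.3 and 137.7 CPM (5.24, 4.63 to 5.95). Several of these genes are known from neurons, as is Unc5d, a netrin receptor, at 5.81 and 37.9 CPM (6.53, but 2.58 without slow-gene nuclei and 3.29 without Col22a1 nuclei). Csmd1, Nell1 and Unc5d were higher still in WT at E14.5, at 218, 485 and 123 CPM, whereas Dio2 and Nell2 were at 0.731 and 4.91 CPM there.

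Less stable members of this group were Cdh20, a cadherin, at 4.71 and 30.4 CPM (6.44, but 1.19 with a rule of 3%), Cpne4, a copine, at 1.01 and 9.76 CPM (9.66, 4.12 with that rule) and Adcy8, an adenylyl cyclase activated by calcium, at 1.18 and 9.76 CPM (8.28, 3.61 without slow-gene nuclei). The ratios of Cdh20 and Cpne4 were thus much smaller among nuclei with more of the rule's genes. Klhl32 (6.90, but 27.4 after thinning), Nrg3, a neuregulin (6.44, and 10.2 with at least 400 peak counts per nucleus), Slc30a10, a manganese transporter (6.11, but 31.5 after thinning), Chst8, a sulfotransferase (5.67, and 9.51 without slow-gene nuclei), Srrm4os (5.34, but 12.4 after thinning) and Asb14, a subunit of ubiquitin ligases of muscle (5.08), made up the rest. Among the largest gains in CPM were Dlg2, a scaffold of synapses, at 5198 and 8920.4 CPM (1.72), Naaladl2 at 547 and 1916 CPM (3.504, 3.41 to 3.60), Ptprd, a receptor phosphatase, at 1643 and 2937 CPM (1.79), Celf2, a splicing regulator, at 3832 and 5338 CPM (1.39), Dip2c at 1604 and 2518 CPM (1.57) and Fgf13, a modulator of sodium channels, at 1951 and 2891 CPM (1.48). Dlg2, Naaladl2, Ptprd and Celf2 were all higher in WT at E14.5 (9486, 3064, 4956 and 8395 CPM) than at E18.5.

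At the low end, after Cacna1s and Myl2, came Dqx1, a putative helicase, at 24.2 CPM (287 UMIs) in WT and 0.603 CPM (6 UMIs) in the KO. Its level was 40.0-fold lower (18.2 to 110.0), with a ratio of 0.0250 that was between 0.00785 and 0.127 under settings that left UMIs in both libraries. Eef1a2, the elongation factor that replaces Eef1a1 in mature muscle, was at 9.93 and 0.402 CPM (0.0405, 0.0109 to 0.106, and between 0.0136 and 0.138 under other settings), and Sec14l5 at 46.5 and 3.82 CPM (0.0822, 0.0576 to 0.114). Both were far higher in WT at P5, at 44.7 and 123 CPM, as was Ppp1r27, a regulator of protein phosphatase 1, at 15.6 and 1.31 CPM (0.0840) and 36.4 CPM at P5. Smtnl1, a smoothelin-like protein, was at 17.3 and 1.81 CPM (0.105), P2rx6, an ATP-gated channel subunit, at 21.5 and 2.92 CPM (0.135), and Tafa4 at 12.4 and 0.805 CPM (0.0650, and 0.1499 without the filter on nuclei). Dqx1, Btk, a tyrosine kinase of blood cells (ratio 0.108, and 0.0714 with a rule of 3%), Pkp1, plakophilin (0.109), and Slc17a3 (0.133, but 0.737 after thinning) form a different set, since each was above 8 CPM in WT at E18.5 and under 3 CPM in every other WT library. Cfap54 was at 26.2 and 3.42 CPM (0.131, and 0.221 after thinning). After thinning Dqx1, Btk, Pkp1, Ppp1r27 and Smtnl1 were at 0 UMIs in the KO. The largest losses in CPM, beside Meg3, Rian and Mirg, were Malat1 at 33383 and 30537 CPM (0.915), Palld, palladin, at 5342 and 3889.9 CPM (0.728), Map4, a microtubule protein, at 2419 and 1497 CPM (0.619) and Prkg1, a cGMP-dependent kinase, at 6482 and 5631 CPM (0.869), with Myl1 given above.

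The differences were next followed into the share of myonuclei that carried a gene. Since KO nuclei were deeper, every nucleus was thinned to 1000 UMIs, which left 1517 WT and 915 KO myonuclei and removed 5 and 8 that were shallower. Col25a1 was found in 14.0% of WT and 49.7% of KO myonuclei (22.9% and 64.7% before thinning), while in non-myonuclei it was in 8.25% and 4.54%. Cd36 was found in 17.9% and 48.4% (46.5% and 79.0% before thinning), against 1.51% and 5.05% of non-myonuclei. Both genes were thus present in about 3 times as many KO myonuclei at equal depth, with intervals of 46.4% to 53.02% and 45.1% to 51.7% in the KO. Musk was in 11.0% of WT and 23.3% of KO myonuclei, Tnnt2 in 12.8% and 23.7%, Chrng in 8.64% and 14.0%, and Chrna1 in 3.23% and 8.63%; before thinning the shares were 34.1% and 62.9%, 48.2% and 78.0%, 39.8% and 67.4%, and 15.2% and 44.5%. Their non-myonuclear shares lay between 0.204% for Chrna1 in WT and 4.28% for Musk in the KO.

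On the low side, Xirp2 was found in 14.7% of WT (12.96 to 16.6) and 1.86% of KO myonuclei (1.09 to 2.96), and Nrap in 23.2% and 8.52%. Before thinning these shares were 28.8% and 6.50% for Xirp2 and 53.5% and 38.7% for Nrap, against at most 1.77% in non-myonuclei. Actn3 was in 7.12% and 1.75%, Mybpc2 in 3.49% and 0.546% (53 of 1517 and 5 of 915), and Hdac9 in 39.3% and 21.7%. Atp2a1 and Ckm remained in a large part of KO nuclei at equal depth, at 53.1% and 37.5% and at 25.1% and 15.2%. Before thinning, where KO nuclei were deeper, Atp2a1 was in 87.0% and 86.5% of myonuclei and in 5.13% and 5.98% of non-myonuclei. For Maf the shares were 6.59% (5.40 to 7.96) and 4.81% (3.52 to 6.40), whose intervals overlap (27.9% and 19.6% before thinning), and both were below the 10.7% and 11.9% of non-myonuclei, some of which express Maf themselves.

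**Figure D4:**
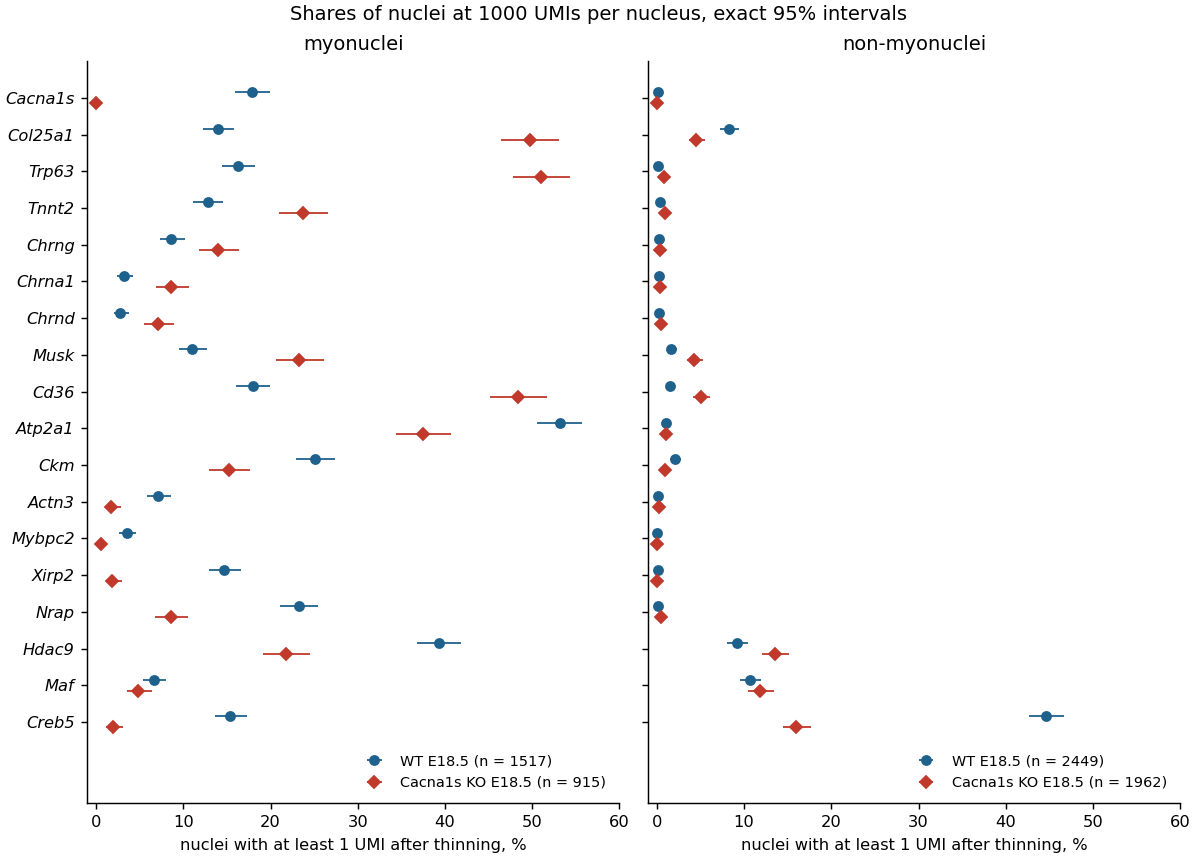
Share of nuclei with at least 1 UMI of a gene after each nucleus was thinned to 1000 UMIs, in percent, for myonuclei (left; WT n = 1517, KO n = 915) and non-myonuclei (right; WT n = 2449, KO n = 1962), with exact binomial 95% intervals. Circles are WT E18.5 and diamonds Cacna1s KO E18.5, 1 library each. Trp63, drawn with them, was picked after its values were seen. Col25a1, Trp63 and Cd36 lie near 50% of KO myonuclei and under 20% of WT myonuclei.

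Summed over lists, the share of a thinned nucleus's UMIs that came from fast sarcomere genes had a median of 0.8% in WT and 0.6% in KO myonuclei, and the quartiles lay between 0.5% and 1.2% and between 0.4% and 0.9%. For the Z-disc list the medians were 1.6% and 1.1%, with quartiles of 0.9% and 2.2% in WT and 0.7% and 1.5% in the KO. Slow-fiber genes were at 0.7% and 0.6% and developmental sarcomere genes at 0.5% and 0.4%, while the denervation-type genes were at 0.1% and 0.2%. The nuclei of both genotypes overlapped widely in each of these shares. At this depth a share rests on few UMIs per nucleus, so the overlap cannot show how the differences were spread over nuclei.

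Open chromatin of the same myonuclei was compared in 54064 peaks called in both libraries, which make up 59.2% of the 91265 WT peaks and 87.4% of the 61874 KO peaks; peaks were called in each library from all of its nuclei. Fragments were taken as 2 cut counts and scaled to the counts in shared peaks. Of the 42396 peaks with at least 40 fragments, 1036 were at least 2-fold higher in the KO (2.44%) and 1756 at least 2-fold lower (4.14%), and the median log2 ratio was -0.03. Scaled instead to all peak counts of the myonuclei, 1776 were higher and 1203 lower, so the balance of higher and lower peaks depends on the scaling. At the 14826 peaks over gene starts (within 1000 bases) fewer differed, with 66 higher (0.445%), 523 lower (3.53%) and a median of -0.12.

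Peaks at gene starts were lower where RNA was lower. Where RNA was higher their median was near even, above the slightly lower median of all genes. The 376 genes with RNA at least 2-fold lower and a start peak had a median peak log2 ratio of -0.33, with 1 peak past 2-fold higher, 39 past 2-fold lower and 67 above WT. The 272 such genes with RNA at least 2-fold higher had a median of 0.01, 10 higher, 12 lower and 140 above WT. Over all 10203 tested genes with a peak the median was -0.10. Of these, 19 peaks were past 2-fold higher, 172 past 2-fold lower and 3643 above WT. The RNA ratio and the peak ratio thus differed in size, and most start peaks of 2-fold genes lay within 2-fold.

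Where a gene had several start peaks, the peak with most fragments is given unless stated otherwise. Start peaks of the 10 denervation-type genes had a median of 0.42, with 9 above WT and 2 past 2-fold. Those were Musk, with 66.0 fragments in WT and 55.5 in the KO (2.06, 1.43 to 3.01; a smaller peak was at 3.56, 2.07 to 6.43), and Trim63, with 125 and 106.5 fragments (2.09, 1.59 to 2.71). Trim63 RNA was at a ratio of only 1.09, so its peak and its RNA differed. Developmental genes had a median of 0.55 over 9 genes with a peak, 8 of them above WT: Tnnt2 was at 1.78 (1.44 to 2.20), Chrng at 1.62 (1.34 to 1.96) and Mymk at 1.82 (1.37 to 2.44). The receptor genes Chrnd (1.81, 1.44 to 2.30) and Chrna1 (1.55, 1.19 to 2.05) were on the same side. Only peaks called in both libraries were compared, so a start peak lost in the KO could not enter. Of the 5 mature fast genes, 4 had such a peak. Of these, 3 were near WT despite low RNA, with Actn3 at 0.850 (0.689 to 1.04), Mybpc2 at 0.970 and Ckm at 0.931 (0.787 to 1.10), and Atp2a1 was higher at 1.54 (1.26 to 1.87) with an RNA ratio of 0.567. The same held for Casq1 (1.53, 1.204 to 1.93; RNA 0.476). The fast sarcomere and Z-disc lists had median start-peak log2 ratios of 0.12 and 0.12, over the 12 of 18 and 28 of 31 genes with a shared start peak.

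Named genes whose RNA and start peak were both lower included these. Creb5 was at 0.416 (0.291 to 0.582), Camk4 at 0.445 (0.225 to 0.804), Col22a1 at 0.481 (0.294 to 0.757), Ache at 0.544 (0.405 to 0.710), Sec14l5 at 0.526 (0.367 to 0.735) and Mylk2 at 0.614 (0.472 to 0.8002). Cacna1s itself had peaks at its start that were 0.966 (0.760 to 1.23) and 0.839 (0.626 to 1.118) of WT, so the start of the gene was open in KO myonuclei at a level that counting error cannot set apart from WT, while its RNA was nearly absent. Of the factors, Maf had 3 start peaks, at 1.21 (0.892 to 1.66), 0.792 (0.543 to 1.10) and 0.570 (0.315 to 0.976), and Myog (1.15), Klf5 (0.961) and Tead4 (1.16 and 1.24) had intervals that include 1. Cd36 was at 2.00 (1.28 to 3.10) and Lpl at 1.73 (1.198 to 2.52), in step with their RNA.

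**Figure D5:**
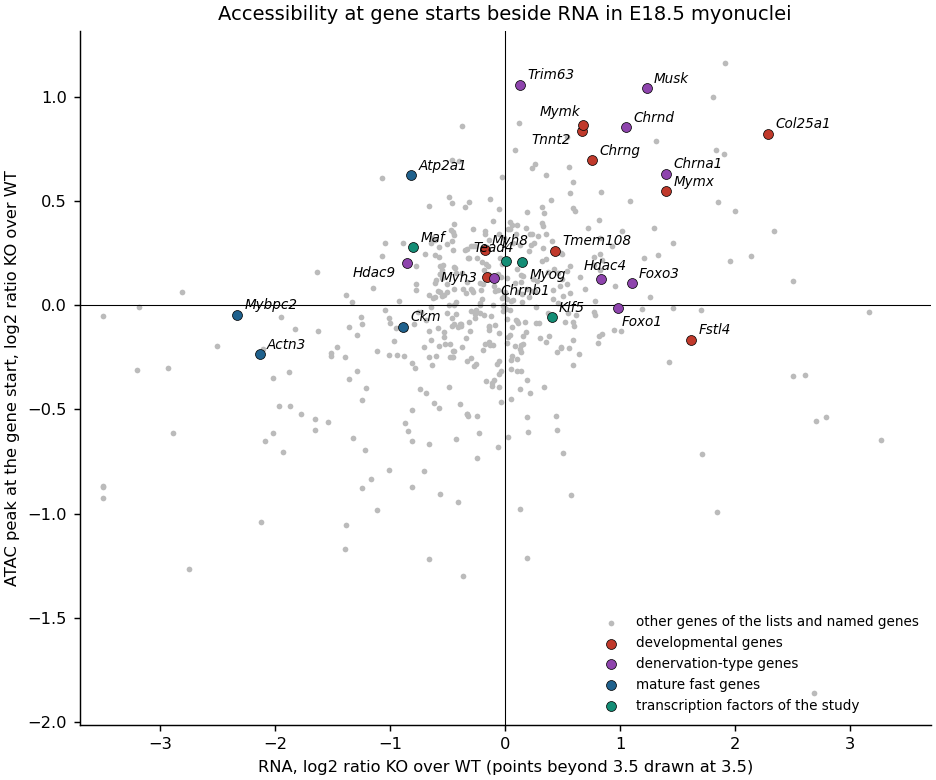
Log2 ratio of the ATAC peak at the gene start, KO over WT (y axis), beside the log2 ratio of RNA (x axis) in E18.5 myonuclei, for named genes and list members with a shared peak at the start (for several peaks, 1 is drawn). Colours mark the lists taken from the study. Musk and Trim63 lie above 1 on the y axis, past 2-fold, while Mybpc2 and Actn3 lie near 0 there with RNA ratios below -2.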

How the data were processed

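Nuclei of the 2 E18.5 libraries were compared. The deposited values are UMI counts per gene and nucleus and transposase cut counts per peak and nucleus, which the authors produced; the submitters' processing notes name Cell Ranger ARC 2.0.0 and mm10. Intronic reads were included and peaks were called per library. Genes of near-identical sequence, such as myosin heavy chains, may share reads, so their counts are uncertain. The KO table held 3621 barcodes, fewer than the nuclei the study's methods count for it. Nuclei with 400 to 25000 UMIs, under 10% mitochondrial UMIs and under 70000 peak counts were kept, and those with 3 or more Mki67 and Top2a UMIs were left out as cycling (41 WT and 58 KO). Doublets were not called. Instead the 10% deepest nuclei were left out as an alternative.

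Counts were summed per library. Ratios were taken of CPM for genes with at least 100 UMIs, with exact conditional binomial intervals. Exact Poisson intervals were used for levels and Clopper-Pearson intervals for shares (all 95%). No test was possible with 1 library per group. Peaks were taken as shared at 50% reciprocal overlap, with 2 cut counts as 1 fragment. GENCODE vM21 starts were matched to 32158 of 32285 gene ids. Genes named by rule were all members of the study's lists, members past 2-fold and the most abundant members of each other list, the 15 highest and 15 lowest ratios and the 8 largest gains and losses in CPM. The genes taken by size had to lie above the non-myonuclei of the library where they were higher, and mitochondrial, ribosomal protein and Gm or Rik genes were left out. Promoters were printed for the highest and lowest ratios among study-list genes with a start peak. Members, lists and tests were chosen with earlier results of these data known. Alternatives covered the myonucleus threshold, filters, scaling, thinning and groups of nuclei left out. Scripts were tested on simulated data and used scipy 1.17.1, numpy 2.4.6, pandas 2.3.3 and matplotlib 3.10.9 in Python 3.11.15. Some genes that the rule names are not reported here. The libraries held 35521496 (WT) and 49913899 (KO) UMIs in all.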

Additional observations from a re-analysis of the deposited data

How the results depend on the processing

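Gene ratios were recomputed under 13 other settings for a chosen set of 211 genes, not for all genes tested. Of these 2742 ratios, 2071 moved by less than their counting interval, 670 moved by more and 1, Myh7, turned from past 2-fold lower to past 2-fold higher. Of the 103 genes of this set past 2-fold, 26 lost the 2-fold difference under at least 1 setting. Values on the other side of 1 were found for 17 genes of the set, of which 1, Myh7, was past 2-fold. Myh7, at 0.466, was at 2.75 without nuclei that held 2 or more slow-gene UMIs (788 WT and 387 KO left). It is itself a gene of that filter, so this value cannot show its direction. The Adcy8 ratio after thinning had no value, since WT held 0 UMIs. Of 463 list medians 406 stayed within the counting interval of their middle member. The counts of genes 2-fold higher and lower in the KO were 113 and 120 after thinning to 1000 UMIs (4111 genes compared), 1022 and 944 with a minimum of 20 UMIs, 133 and 146 with 500, and 4013 and 3272 with no minimum. They were 1048 and 1377 at 1.5-fold and 128 and 144 at 3-fold. Without slow-gene nuclei the list medians were 0.95 for developmental, -1.42 for mature fast, 1.11 for denervation-type, -0.97 for fast sarcomere and 0.69 for fatty acid genes. They were -0.06 for slow-fiber and -0.59 for glycolysis genes. The slow-fiber list holds all genes of that filter, and the developmental list holds Myh7. The filter counts UMIs before thinning, so a selection on fiber type and one on depth cannot be told apart in these shifts. After thinning the developmental median was 0.40 and the mature fast median -1.06, which was -1.005 without the filter on nuclei. The fatty acid median was 0.16 with a minimum of 500 UMIs. The immediate early median changed from -0.41 to 0.13 with a minimum of 20 UMIs and with none, settings that admit more genes. The cause of the other shifts was not tested. Shared peaks 2-fold higher and lower numbered 530 and 581 with at least 80 fragments, and 1776 were higher when scaled to all peak counts. No paired analysis was possible because each genotype is 1 library. Depth limits the genes with few UMIs: peaks held 5103794 cut counts in KO myonuclei against 13791886 in WT, so ratios at single peaks are wide.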

Other observations

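The genes here were chosen after their values were seen, and the values are given as descriptions of these 2 libraries. Genes of the sterol pathway were lower in KO myonuclei. Of 20 such genes 19 held enough UMIs, all 19 were below WT, 16 were at least 2-fold lower, and the median log2 ratio was -1.52. Idi1, an isomerase of the pathway, was at 26.3 CPM in WT and 4.63 CPM in the KO (0.176), Nsdhl at 43.7 and 10.2 CPM (0.233), Msmo1, a sterol oxidase, at 62.2 and 15.4 CPM (0.247), and Hmgcs1, the synthase before the rate-limiting step, at 60.3 and 23.1 CPM (0.384). In non-myonuclei the same 19 were below WT too, 10 of them at least 2-fold, with a median of -1.04, so the lower levels were seen on both sides of the myonucleus rule.

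Trp63, a p53 relative, was at 292 CPM in WT and 1099.9 CPM in KO myonuclei (3.77, 3.63 to 3.92) against 1.71 and 11.3 CPM in non-myonuclei, and its start peak was at 2.24. Pde4b, a cyclic AMP phosphodiesterase, was at 180.2 and 721 CPM (4.00), Ankfn1 at 81.3 and 339 CPM (4.17), and Dcx, doublecortin, at 102 and 299.7 CPM (2.94). Fhl1, a LIM protein of the sarcomere, was at 522 and 133 CPM (0.256), while its relative Fhl2 was at 32.4 and 88.9 CPM (2.74). Kcnn2, a calcium-activated potassium channel, was at 387 and 91.0 CPM (0.235), and Pdlim7 at 242 and 94.5 CPM (0.390). Of the genes beside Cacna1s, Pkp1, whose start lies 133.5 kb before that of Cacna1s, was at 0.109, Igfn1 (46.4 kb before) at 2.39 and Tmem9 (44.6 kb before) at 1.17. All distances are between gene starts. Gm37759 starts 67.1 kb after the Cacna1s start, which is the end of Cacna1s itself, and held 27 UMIs in WT and 0 in the KO. Farther on, Mroh3 (160.1 kb after) was at 0.114 (0.0129 to 0.466) and Inava (181.5 kb after) at 0.171 (0.0435 to 0.488), on few UMIs. Camsap2 was at 0.764. Farther before Cacna1s than Pkp1, Tnnt2 was at 1.59, Tnni1 at 0.759, Csrp1 at 1.45 and Nav1 at 1.09. Tnnt2 and Tnni1, given above as a developmental and a slow-fiber gene, thus lie in the same region as the deleted gene. Whether the deletion itself acts on the levels of its neighbours was not tested. The shared peak with the lowest ratio, at chr1:24612350-24613226, held 748 fragments in WT and 5 in the KO (61.1-fold lower), in a region known to hold a copy of mitochondrial DNA, so its fragments cannot be told apart from mitochondrial ones.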
